A study of Mus musculus with 6 samples.

Results

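The mature arms of 4 miRNA hairpins that lie in introns of protein-coding genes were described: mmu-miR-342-3p and mmu-miR-342-5p from Evl, mmu-miR-340-5p and mmu-miR-340-3p from Rnf130, mmu-miR-330-5p and mmu-miR-330-3p from Eml2, and mmu-miR-190a-5p from Tln2 (mmu stands for mouse and is left out from here on). They were selected on their names and hosts with the KO against WT read counts of these libraries already known, so their differences between genotypes are given as a description. These 7 arms were found among 1182 features of the count table, and all 7 passed the filter on low counts that 541 features passed. Small RNA was sequenced from brain cortex of adult male mice without treatment, 3 libraries from animals labelled fmr1 KO, which lack Fmr1, and 3 from age-matched siblings labelled fmr1 WT. Its protein, FMRP, binds messenger RNAs and controls their translation at synapses, and fragile X syndrome follows from its loss. The strain, the exact age and the number of animals behind a library were not stated in the labels, so standard errors and p-values measure the spread between libraries. Fmr1 mRNA is not measured in small RNA, and the genotype labels were not checked against it.

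An intronic miRNA is usually transcribed as part of its host's primary transcript. The hairpin is cut out of the intron in the nucleus, exported and trimmed to a short duplex, of which mostly a single strand, the guide, is kept by an Argonaute protein and the other is degraded. The guide then recognises messenger RNAs mainly through its seed, bases 2 to 8 from its 5′ end. The 4 hosts have different roles. Evl is an Ena/VASP protein of actin filament growth, Rnf130 a RING-type ubiquitin ligase, Eml2 a microtubule-associated protein, and Tln2 (talin 2) a linker of integrins to actin. Evl is also expressed in blood cells, where miR-342-3p is abundant.

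The mature sequences are shown because each arm has its own seed, and hence its own set of possible targets. They are RefSeq sequences on GRCm38.p6, written 5′ to 3′ with the seed in capitals.
miR-330-5p: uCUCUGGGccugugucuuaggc
miR-330-3p: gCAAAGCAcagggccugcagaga
miR-340-5p: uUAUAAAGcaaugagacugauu
miR-340-3p: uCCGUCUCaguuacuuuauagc
miR-342-5p: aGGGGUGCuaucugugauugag
miR-342-3p: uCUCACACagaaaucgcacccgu
miR-190a-5p: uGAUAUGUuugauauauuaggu
No seed was shared among the 7 arms. GC content ran from 22.7% in miR-190a-5p and 27.3% in miR-340-5p, over 40.9% in miR-340-3p, 50% in miR-342-5p and 52.2% in miR-342-3p, to 59.1% in miR-330-5p and 60.9% in miR-330-3p. Among the other features of the table with a RefSeq sequence, 2 had a seed in common with an arm. The seed of miR-330-5p is also that of miR-326-3p, from an intron of the arrestin gene Arrb1, and the seed of miR-190a-5p is also that of miR-190b-5p from chromosome 3.
miR-326-3p: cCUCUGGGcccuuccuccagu
miR-190b-5p: uGAUAUGUuugauauuggguug
The 2 miR-190 sequences are identical through base 15 of 22, and no later position is alike. Only a read cut to about that length, or matched with several mismatches, could be counted for either. miR-330-5p and miR-326-3p are identical from base 2 through base 10, with 12 of 21 positions alike over their whole length.

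The hairpins themselves are shown with both annotated arms in capitals, because the ratio of the arms is measured further on.
miR-342: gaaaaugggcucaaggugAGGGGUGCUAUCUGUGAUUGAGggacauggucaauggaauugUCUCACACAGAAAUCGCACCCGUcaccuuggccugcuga
miR-340: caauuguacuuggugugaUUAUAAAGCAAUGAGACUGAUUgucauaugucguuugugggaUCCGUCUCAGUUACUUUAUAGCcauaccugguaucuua
miR-330: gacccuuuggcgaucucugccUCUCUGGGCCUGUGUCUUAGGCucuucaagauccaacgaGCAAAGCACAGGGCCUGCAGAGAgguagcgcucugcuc
miR-190a: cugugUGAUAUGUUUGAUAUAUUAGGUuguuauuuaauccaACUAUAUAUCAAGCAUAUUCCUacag
The miR-342 hairpin lies at chr12:108658620-108658718 on the plus strand, in intron 3 of 13 of Evl, 5520 bases after the exon before it in an intron of 20189 bases. The miR-340 hairpin (chr11:50069702-50069799, plus strand) lies in intron 2 of 8 of Rnf130, 1371 bases before the next exon in an intron of 18200 bases. The miR-330 hairpin (chr7:19181465-19181562, plus strand) lies in intron 1 of 18 of Eml2, an intron of 485 bases, with 241 bases before the hairpin and 146 after it. The miR-190a hairpin (chr9:67236660-67236726, minus strand) lies in intron 53 of 57 of Tln2, 3953 bases after the exon before it. Introns are numbered along the transcript that GENCODE M21 marks as principal, and the hairpins were intronic in every coding transcript that spans them (5 for Evl, 2 for Rnf130, 5 for Eml2 and 6 for Tln2). No annotated gene lies on the opposite strand of any of the 4 hairpins, and no other feature had counts within 3% of those of any of the 7 arms in every library.

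**Figure D1:**
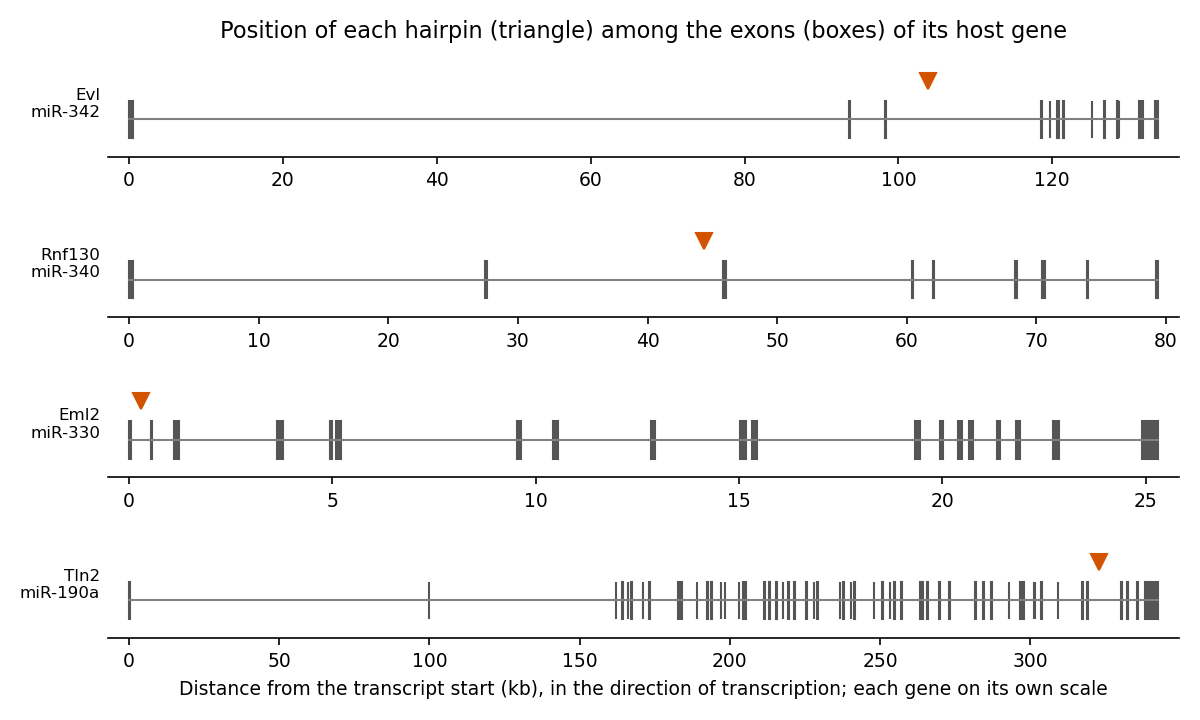
Exons (boxes) of the principal coding transcript of each host gene and the position of the miRNA hairpin (triangle), in kb from the transcript start, with each gene on its own scale. The miR-330 hairpin lies 0.295 kb from the start of the Eml2 transcript drawn, while the miR-190a hairpin lies 323 kb into Tln2, near its 3′ end. The annotated Eml2 gene begins upstream of this transcript, at chr7:19176421.

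Libraries held 11182888 to 15733876 miRNA reads, with 875 to 914 features detected. Neural miRNAs, which define the tissue (5 of 5 tested, led by miR-9-5p and miR-128-3p), summed to 297606 to 437399 CPM (counts scaled to a common library size by TMM) in KO and 325406 to 356975 CPM in WT. The KO libraries differed more among themselves, with a median SD over 541 tested miRNAs of 0.40 log2 units, against 0.14 for WT. KO replicate 3 stood farthest from WT, with a median absolute difference from the WT mean of 0.46 log2 units over all tested miRNAs, against 0.29 in KO replicate 1 and 0.26 in KO replicate 2. The log2 fold changes of the 7 arms are therefore given with and without it.

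The arms covered a wide range of levels. By mean CPM over the 6 libraries the order was miR-330-5p, miR-340-5p, miR-330-3p, miR-340-3p, miR-342-3p, miR-342-5p and miR-190a-5p, at ranks 42, 59, 118, 123, 135, 323 and 407 of 541. miR-330-5p averaged 1801 CPM ± 326 and miR-340-5p 905 CPM ± 105 (SD, n = 6 each), and their libraries did not overlap. The 3 arms that follow overlapped between neighbours over the 6 libraries: miR-330-3p at 179 CPM ± 51.4, miR-340-3p at 161 CPM ± 50.03 and miR-342-3p at 119 CPM ± 71.0 (SD, n = 6 each). miR-330-3p was above miR-340-3p in 3 of 6 libraries, and miR-340-3p above miR-342-3p in 5 of 6. Among the WT libraries alone these arms did not overlap, at 204 to 232, 136 to 150 and 83.3 to 99.2 CPM. miR-342-3p lay 16.03-fold above miR-342-5p (7.45 CPM ± 2.62), with no overlap. miR-342-5p and miR-190a-5p (2.87 CPM ± 1.82) overlapped in range, although miR-342-5p was the higher in 6 of 6 libraries. Ligation and amplification can favour some small RNA sequences over others, so the order is of read counts.

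**Figure D2:**
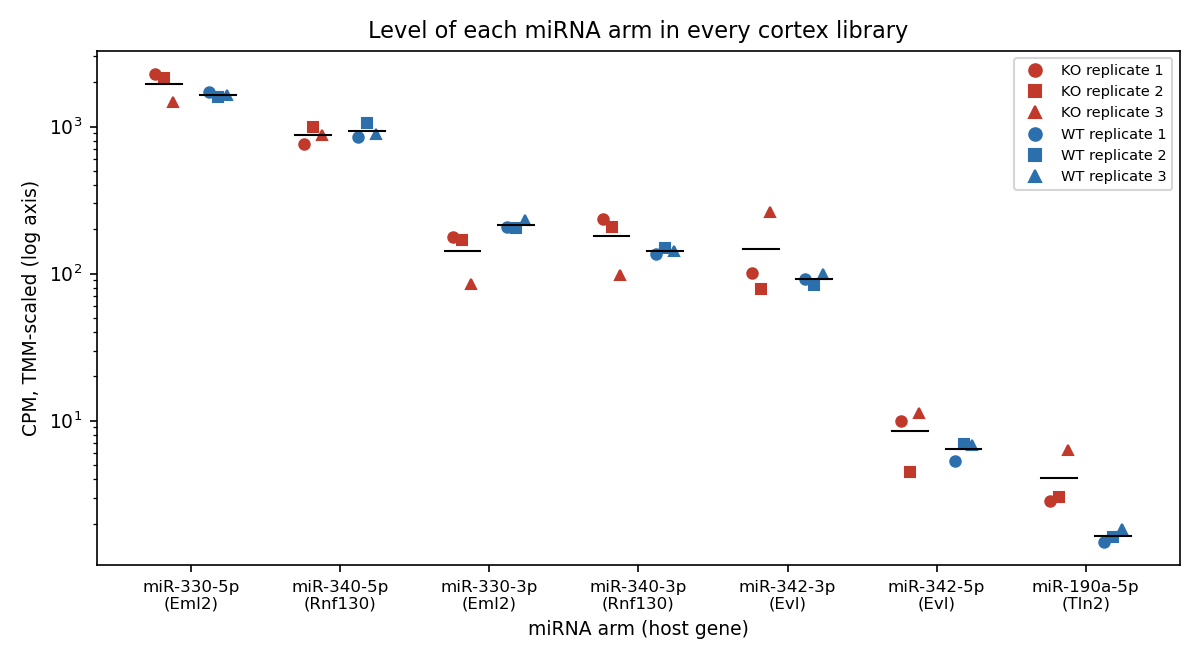
CPM (TMM-scaled, log axis) of the 7 arms in each of the 3 KO and 3 WT libraries, with black bars at the group means. Values run from 2271 CPM for the highest library of miR-330-5p to 1.51 CPM for the lowest library of miR-190a-5p, and KO replicate 3 (red triangles) is set apart in miR-342-3p, miR-330-3p, miR-340-3p and miR-190a-5p.

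Each hairpin had a clear leading arm in all 6 libraries. The 5p arm led for miR-340, miR-330 and miR-190a and the 3p arm for miR-342. The mean of log2(5p reads / 3p reads) was 2.54 ± 0.50 for miR-340, 3.38 ± 0.51 for miR-330, 4.02 ± 1.28 for miR-190a with 1 read added to both arms, and -3.93 ± 0.44 for miR-342 (SD, n = 6 each). Each passed an exact two-sided sign-flip permutation test (p = 0.0312 and adjusted p = 0.0312 over 4 hairpins), which is the smallest p that 6 libraries allow. Any 6 libraries with ratios of the same sign give this p, so it restates that the same arm led in each. For miR-190a the 3p arm was not among the chosen arms and had 10 reads in all libraries together. All 4 leading arms begin with U, and of the 4 lesser arms 1 begins with U, 2 with A and 1 with G.

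For miR-342 the 5p share of the reads of both arms was 8.98%, 5.36% and 4.08% in KO replicates 1 to 3 and 5.46%, 7.75% and 6.45% in WT replicates 1 to 3. The groups overlapped, and the mean log2 ratio was -4.01 ± 0.62 for KO and -3.85 ± 0.27 for WT (SD, n = 3 each). The difference of KO minus WT was -0.16, and it ran from -0.50 without KO replicate 1 to 0.11 without KO replicate 3.

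For miR-340 the 5p share was 76.6%, 82.8% and 90.0% in KO and 86.2%, 87.6% and 86.2% in WT. KO replicates 1 and 2 lay below and KO replicate 3 above every WT library. The mean log2 ratio was 2.38 ± 0.74 for KO and 2.70 ± 0.10 for WT (SD, n = 3 each), and the difference of KO minus WT ranged from -0.71 to 0.014 with each library left out.

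For miR-330 the 5p share was 92.8% (95% Wilson interval 92.5 to 93.0), 92.7% (92.4 to 93.0) and 94.5% (94.1 to 94.8) in KO, and 89.1% (88.8 to 89.5), 88.6% (88.2 to 89.0) and 87.6% (87.2 to 88.0) in WT. In numbers of reads, KO libraries held 12.8, 12.7 and 17.1 reads of miR-330-5p for each read of miR-330-3p, and WT libraries 8.20, 7.76 and 7.09. The groups did not overlap, with or without KO replicate 3. The mean log2 ratio was 3.82 ± 0.24 for KO and 2.94 ± 0.11 for WT (SD, n = 3 each), a difference of 0.88, or a 1.84-fold higher ratio. With each library left out it ranged from 0.74 to 0.95. Of 144 hairpins with both arms tested, 24 had arm ratios that did not overlap between genotypes (16.7%), 12 of them higher in KO (8.33%), and 11 differed by at least as much as miR-330, itself included. These ratios come from the contrast whose results were known when the arms were chosen, and are given as a description with no test.

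For miR-190a the 3p arm was close to undetectable. It had 0, 0 and 2 reads in the KO libraries and 2, 1 and 5 in the WT libraries, beside 42, 36 and 77 and 23, 22 and 28 reads of the 5p arm. A count of 0 allows a 3p share of up to 7.14% in KO replicate 1 and 8.33% in KO replicate 2. The miR-190a ratio is too sparse to compare between genotypes, and it moved by over 1.5 times with the number of reads added.

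**Figure D3:**
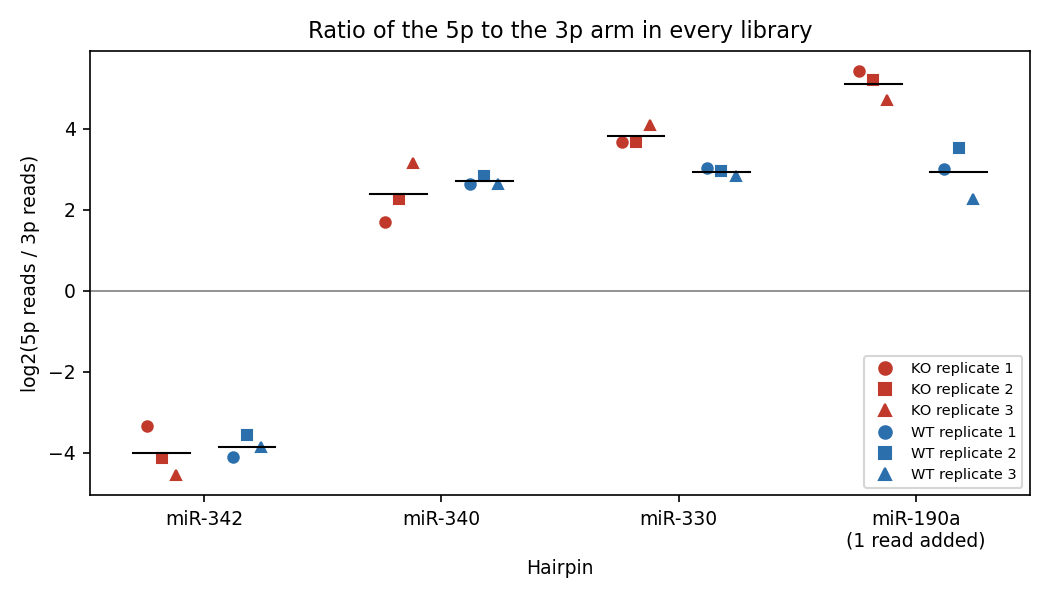
log2 of 5p reads over 3p reads for each hairpin in the 3 KO and 3 WT libraries, with black bars at the group means and 1 read added to both arms for miR-190a. miR-342 lies below 0 and the other hairpins above 0 in all libraries, and the KO libraries of miR-330, from 3.67 to 4.10, lie above its WT libraries, from 2.83 to 3.04.

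Between genotypes, 0 of the 7 arms and 0 of all 541 miRNAs (0%) passed the edgeR quasi-likelihood test at an adjusted p under 0.05, and DESeq2 and limma-voom also called 0. At an unadjusted p under 0.05 edgeR had 1 of the 7, miR-190a-5p, and 35 of 541 (6.47%), and limma-voom 2 of 7 and 34 of 541 (6.28%). DESeq2 had 2 of 7 and 40 of 1182 (3.38%). The DESeq2 share is over all features with no filter on low counts, so it is not on the same footing as the others. KO and WT libraries did not overlap for 2 of the 7 arms and for 85 of 541 miRNAs (15.7%), among them miR-190a-5p with higher values (28 of 541, 5.18%) and miR-330-3p with lower values (57 of 541, 10.5%). Nothing is read from these counts, since the arms were chosen with this contrast known. In bulk tissue, fewer cells of a type and less of the RNA per cell cannot be told apart.

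From Eml2, miR-330-5p had 2271, 2138 and 1457 CPM in KO replicates 1 to 3 against 1709, 1584 and 1643 CPM in WT replicates 1 to 3. KO replicates 1 and 2 lay above and KO replicate 3 below every WT library. Fitted as KO over WT, the log2 fold change was 0.25 (SE 0.19, 95% interval -0.18 to 0.68). It was 0.44 without KO replicate 3, 0.14 without KO replicate 1 and 0.13 without KO replicate 2.

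Its partner miR-330-3p had 177, 168 and 85.2 CPM in KO against 208, 204 and 232 CPM in WT. All 3 KO libraries lay below all 3 WT libraries, with KO replicate 3 the lowest by far. The fit gave -0.58 as log2 fold change (SE 0.28, 95% interval -1.22 to 0.06), and -0.30 without KO replicate 3. The arms of this hairpin thus had fitted values of opposite sign, and over the libraries their log2 CPM had a Pearson r of 0.29 (n = 6) and of -0.87 without KO replicate 3 (n = 5).

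From Rnf130, miR-340-5p varied least of the 7 arms among the KO libraries. It had 765, 991 and 878 CPM in KO against 846, 1059 and 889 CPM in WT, and the groups overlapped. Its log2 fold change was -0.085 (SE 0.17, 95% interval -0.47 to 0.30), and its sign changed without KO replicate 1 (0.017) and without WT replicate 2 (0.045) but not without KO replicate 3 (-0.065). Among KO libraries its SD was 0.19 log2 units and among WT libraries 0.17. Apart from miR-330-5p (0.35 among KO libraries), each of the other arms had a KO SD above the median of all tested miRNAs.

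The 3p arm, miR-340-3p, had 234, 206 and 97.8 CPM in KO against 136, 150 and 142 CPM in WT. As for miR-330-5p, KO replicates 1 and 2 lay above and KO replicate 3 below every WT library. With all libraries the log2 fold change was 0.33 (SE 0.31, 95% interval -0.37 to 1.03), with 0.64 without KO replicate 3, 0.10 without KO replicate 1 and 0.15 without KO replicate 2. The profiles of miR-340-3p and miR-330-5p, from different chromosomes, had an r of 0.95 over 6 libraries and also over the 5 without KO replicate 3. The arms of miR-340 had an r of -0.13 (n = 6) and of -0.30 without KO replicate 3 (n = 5).

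From Evl, miR-342-3p had 100, 78.6 and 263 CPM in KO against 91.9, 83.3 and 99.2 CPM in WT. KO replicate 3 alone stood far above the rest, KO replicate 2 was the lowest of all, and the groups overlapped. Its log2 fold change was 0.69 (SE 0.42, 95% interval -0.28 to 1.66), and -0.018 without KO replicate 3. Its partner miR-342-5p had 9.90, 4.46 and 11.2 CPM in KO against 5.31, 6.99 and 6.84 CPM in WT, from 53 to 145 reads per library. KO replicate 2 was again the lowest library and KO replicate 3 the highest. A log2 fold change of 0.42 was fitted (SE 0.34, 95% interval -0.36 to 1.20), with 0.19 without KO replicate 3, and the arms had an r of 0.74 (n = 6) and of 0.70 without that library (n = 5).

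From Tln2, miR-190a-5p had 2.87, 3.03 and 6.35 CPM in KO against 1.51, 1.62 and 1.84 CPM in WT. All 3 KO libraries lay above all 3 WT libraries, and KO replicate 3 was the highest. The log2 fold change was 1.29 (SE 0.38, 95% interval 0.43 to 2.15), and 0.84 without KO replicate 3. These values rest on 155 reads in the 3 KO libraries together and 73 in WT. The same-seed miR-190b-5p had 10, 2 and 7 reads in KO and 8, 8 and 4 in WT, and did not pass the filter.

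Of the same-seed relative of miR-330-5p, miR-326-3p, there were 14.1, 13.2 and 33.3 CPM in KO against 17.8, 15.8 and 14.01 CPM in WT. Its KO replicate 3 was the highest library, where that of miR-330-5p was the lowest. The log2 fold change was 0.35 (SE 0.36, 95% interval -0.48 to 1.17), and -0.20 without KO replicate 3.

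Without KO replicate 3, edgeR with 2 KO and 3 WT libraries called 18 of 560 miRNAs (3.21%) at an adjusted p under 0.05. Among these were 2 of the 7 arms, miR-340-3p and miR-330-5p, both higher in KO, with a log2 fold change of 0.44 for the latter. In no other fit with a library left out was any miRNA called. The library was singled out for its distance from the others, and this count is a description.

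**Figure D4:**
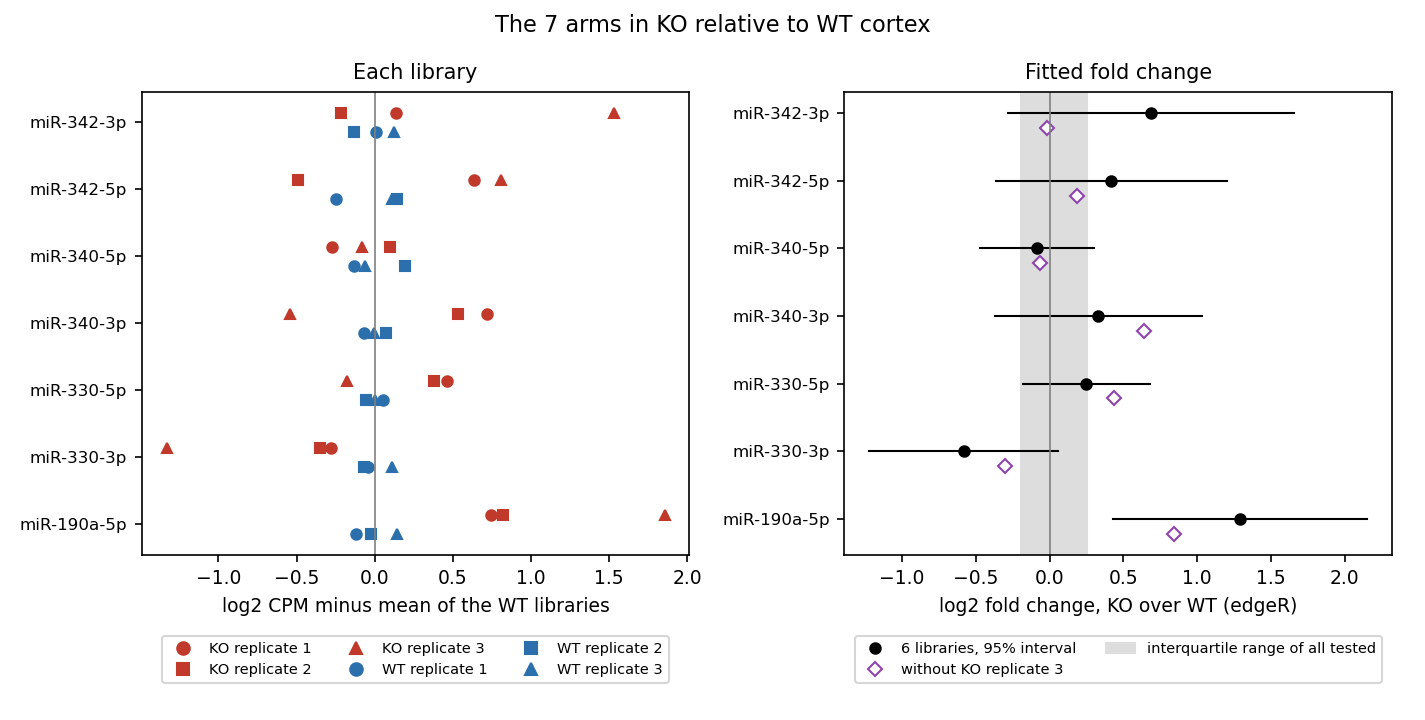
Left, log2 CPM of the 7 arms in each library minus the mean of the WT libraries. Right, log2 fold change of KO over WT from edgeR with its 95% interval (black), the value without KO replicate 3 (open diamonds) and the interquartile range of all tested miRNAs (grey, -0.19 to 0.26). KO replicate 3 lies at 1.53 for miR-342-3p, -1.33 for miR-330-3p and 1.85 for miR-190a-5p, and on the other side of 0 from KO replicates 1 and 2 for miR-340-3p and miR-330-5p.

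Base composition was set beside these differences. Over 470 tested miRNAs with a RefSeq sequence, GC content and the difference from the WT mean had a Pearson r of 0.13 in KO replicate 1, -0.29 in KO replicate 2 and -0.12 in KO replicate 3, and of 0.13, -0.14 and 0.034 in WT replicates 1 to 3, a description across miRNAs, which are not independent. Of the 4 arms farthest from WT in KO replicate 3, miR-190a-5p (22.7% GC), miR-342-3p (52.2%) and miR-342-5p (50%) were high and miR-330-3p (60.9%) was low. The part of base composition in these values was not tested.

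The miRNAs most like each leading arm in log2 CPM over the 6 libraries, which share library and depth, were named by rank of Pearson r. For miR-342-3p they were miR-204-5p (r = 0.99), a miRNA abundant in choroid plexus, miR-129-2-3p (0.98) and miR-129b-5p (0.98). Without KO replicate 3 these r were 0.84, 0.87 and 0.76 (n = 5), and 32 of 539 miRNAs had an r above 0.9 with miR-342-3p over 6 libraries. miR-129-2-3p and miR-129b-5p, of the same family, ranked the 6 libraries in the same order, and whether they are separate profiles was not tested. For miR-330-5p the nearest were miR-12184-3p, miR-331-5p and miR-25-3p (0.97, 0.97 and 0.96), and 17 of 539 were above 0.9. miR-25-3p, from an intron of the replication gene Mcm7, had 174, 168 and 79.4 CPM in KO against 109, 114 and 113 CPM in WT, with KO replicates 1 and 2 above and KO replicate 3 below every WT library, as for miR-330-5p and miR-340-3p. Without KO replicate 3 the r of the 3 named miRNAs with miR-330-5p were 0.96, 0.95 and 0.97 (n = 5).

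For miR-340-5p the nearest were miR-126b-5p, miR-369-3p and miR-344c-3p (0.96, 0.93 and 0.91), the only 3 of 539 above 0.9, with 0.96, 0.98 and 0.92 without KO replicate 3. For miR-190a-5p they were miR-3074-5p and miR-24-3p (both 0.97) and miR-376b-5p (0.96), with 18 of 540 above 0.9, and 0.92, 0.92 and 0.87 without that library. miR-24-3p had 5129, 5158 and 5621 CPM in KO against 4811, 4613 and 4813 CPM in WT. It shared nearly all its counts with miR-3074-5p, which lies on the opposite strand of the same locus, so these are not separate profiles. With 6 libraries such values of r describe the rank of likeness and no more.

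Because miR-342-3p is abundant in leukocytes, their markers were set beside it. Of 6 microglia and leukocyte miRNAs 5 were tested, and none of the 6 was at 0 reads in any library. miR-223-3p, with 3 to 15 reads per library, did not pass the filter. Their summed level was 194 to 219 CPM in KO and 170 to 180 CPM in WT, and KO replicate 3, where miR-342-3p was highest, had the lowest sum of the KO libraries. The list did not move together. miR-146a-5p (110, 132 and 62.6 CPM in KO, 78.3 to 81.8 CPM in WT) and miR-142a-5p were at their lowest in that library. At their highest there were miR-150-5p (118 CPM, against 75.3 to 90.1 CPM in WT), miR-142a-3p (3.96 CPM) and miR-155-5p (1.32 CPM).

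**Figure D5:**
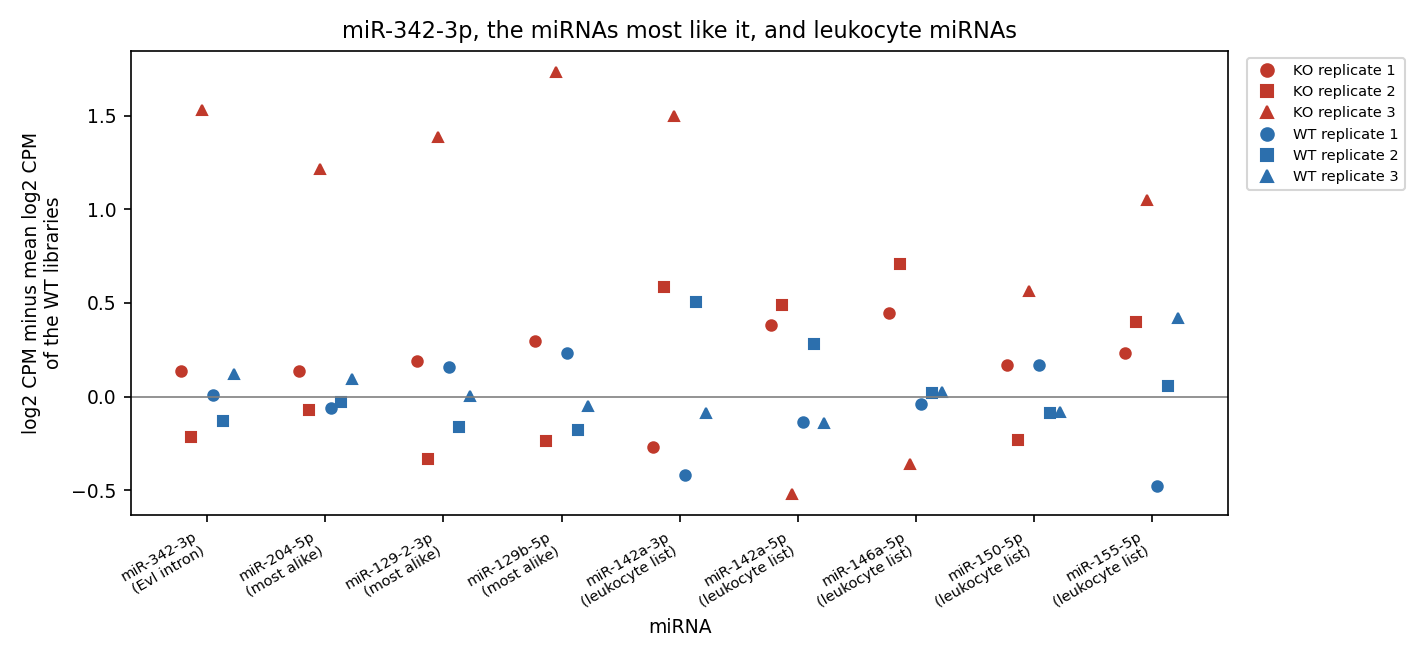
log2 CPM minus the mean of the WT libraries for miR-342-3p, the 3 miRNAs most like it over 6 libraries and the 5 tested leukocyte miRNAs, in each library. KO replicate 3 (red triangles) is the highest library for miR-342-3p, for the 3 most alike and for miR-142a-3p, miR-150-5p and miR-155-5p, and the lowest for miR-142a-5p and miR-146a-5p.

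Other tissue lists were set beside the same libraries. The 3 tested of 5 choroid plexus and multiciliated miRNAs (led by miR-204-5p and miR-34c-5p) summed to 1004, 1016 and 2092 CPM in KO and 959 to 1028 CPM in WT. KO replicate 3, the library highest for miR-342-3p and miR-190a-5p, was the highest here. Most of the sum was miR-204-5p (1621 CPM in KO replicate 3), already named as most like miR-342-3p. For miR-342-3p the sum is thus not a separate observation. The 8 epithelial and olfactory miRNAs (led by miR-182-5p and miR-183-5p, with miR-141-3p at 0 in KO replicate 1) summed to 61.6, 2051 and 1996 CPM in KO and 169 to 724 CPM in WT. The sums for 4 erythroid miRNAs (led by miR-486a-5p and miR-451a) were 99.4, 80.3 and 121 CPM in KO and 75.4 to 83.4 CPM in WT. The erythroid sum was highest in KO replicate 3 too, with miR-451a at 80.1 CPM there, 43.3 and 36.2 CPM in the other KO libraries and 28.8 to 39.7 CPM in WT. The list did not move together, since miR-486a-5p was at its lowest in KO replicate 3. It had 38.4 CPM there, 54.8 and 42.3 CPM in the other KO libraries and 41.7 to 45.2 CPM in WT. The 3 oligodendrocyte miRNAs (led by miR-219a-2-3p and miR-338-3p) gave 558 to 792 and 769 to 880 CPM. The 3 endothelial and mural miRNAs (led by miR-143-3p and miR-126a-3p) gave 38420 to 44503 and 35170 to 42527 CPM. In each of the 7 lists 0 members passed the edgeR threshold, and the part of these cells in the values of the 7 arms was not tested.

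Other miRNAs from introns of protein-coding genes give the wider group. Of 162 such miRNAs tested, from 106 hosts or host pairs, 92 had higher and 70 lower fitted values in KO and 0 passed the edgeR test, with 9 at an unadjusted p under 0.05 and 23 with non-overlapping groups (14.2%). Over all 541 tested, 284 were higher and 257 lower. Listed miRNAs are not all separate measurements. Both arms of a hairpin could be listed, as could miR-24-3p and miR-3074-5p, which share nearly all their counts. The median log2 fold change was 0.11 over the list and 0.03 over all tested miRNAs, and the list's median was -0.033 without KO replicate 1. The 4 most abundant were miR-128-3p (R3hdm1 and Arpp21), a neuron-enriched miRNA, at a log2 fold change of -0.10 (SE 0.13), miR-26a-5p (Ctdspl and Ctdsp2) at -0.41 (SE 0.17), let-7f-5p (Huwe1) at -0.07 (SE 0.14) and let-7g-5p (Wdr82) at -0.45 (SE 0.32). A miRNA was listed if any of its hairpins lies in such an intron, and only such hosts are named. Reads of a listed miRNA can also come from hairpins elsewhere, so they are not a measure of the host named. The 7 arms had 5 higher and 2 lower values, beside 52.5% higher over all tested.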

How the data were processed

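Small RNA of adult male mouse cortex was read in 6 libraries, 3 labelled fmr1 KO and 3 fmr1 WT. Per the submitters' processing notes Bowtie, DESeq2 and mm10 were used; no version or setting is listed. How adaptors were trimmed, which miRBase release and mismatches applied, and how strand and multiple matches were handled is not given in the sources used here. miR-24-3p and miR-3074-5p, from opposite strands of the same locus, had nearly equal counts in every library. For this pair the deposited counts thus did not separate the strands. Per the file headers the authors deposited raw read counts per mature miRNA, and TPM values that equal the count over the column total, scaled to a common sum, with no length term.

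The members and lists were chosen with earlier results of these data known. Replicate numbers follow accession order and only name a library. Counts were fitted in R 4.3.3 with edgeR 4.0.16 over all miRNAs that passed filterByExpr at its default minimum count of 10 (541 of 1182 features), with TMM scaling, the robust quasi-likelihood test and Benjamini-Hochberg adjustment over 541 miRNAs at 0.05. CPM values are TMM-scaled. Standard errors and 95% intervals come from that fit. Arms of a hairpin were compared within libraries by an exact sign-flip permutation test. Alternatives were DESeq2 1.42.0, limma 3.58.1 (voom, and trend on log2(TPM + 1)), other scalings and filters, and each library left out. The main edgeR fit and the sign-flip test were tested on simulated data, and the alternatives were not.

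Named miRNAs were set by a rule: the 7 arms, the other arm of their hairpins, miRNAs with the same seed, the 3 most alike in profile for each leading arm, the 4 most abundant other intronic miRNAs, and the 2 most abundant of each marker list. Hairpins and sequences come from RefSeq (GRCm38.p6, the assembly of mm10), which held 970 of the 1182 names and all 7 arms, and host genes from GENCODE M21. An intronic miRNA has a hairpin between exons of a protein-coding gene on the same strand. There were 0 value columns of no sample. Reads carry no molecular identifiers, so intervals of shares of reads (Wilson, 95%) and limits from 0 reads cover counting error only.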

Additional observations from a re-analysis of the deposited data

How the results depend on the processing

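Of the 7 arms, miR-190a-5p, miR-342-5p, miR-340-3p, miR-330-5p and miR-330-3p kept the sign of their log2 fold change under every alternative run. Over all alternatives miR-190a-5p ranged from 0.84 to 1.51 and miR-330-3p from -0.77 to -0.30, and miR-190a-5p has no value at a minimum of 5 CPM in 3 libraries. The sign changed for miR-342-3p without KO replicate 3 (-0.0179; the range with a library left out was up to 0.977), and for miR-340-5p without KO replicate 1 (0.0174) and without WT replicate 2 (0.0451; lowest value -0.219). With a library left out, calls over all miRNAs ranged from 0 to 18, calls among the 7 arms from 0 to 2, and the median of the intronic list from -0.0333 to 0.11. Without KO replicate 3, in alternatives chosen after seeing the data, the r of miR-330-5p with miR-330-3p turned to -0.87 and the log2 fold change of miR-326-3p to -0.201. With a library left out the mean log2 arm ratio ranged from 2.42 to 2.71 for miR-340, 3.23 to 3.49 for miR-330, 3.74 to 4.37 for miR-190a and -4.05 to -3.81 for miR-342, where 5 libraries allow no p under 0.0625. With 10 reads added to both arms the difference in log2 ratio of miR-190a between KO and WT was 1.03, against 2.18 with 1 read added, and ratios of TPM gave no value for it. The cause of these changes was not tested. No paired analysis was possible because the labels name no litter or pair. Any litter that KO and WT siblings share was therefore left out of the fits. Read depth limits miR-190a most, at 22 to 77 reads of its 5p arm per library.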
